A study of Mus musculus with 3 samples.

Results

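T cells that carried Il10 transcripts but no Foxp3 transcripts were examined among CD45+ leukocytes of mouse colon. A cell was taken when it had at least 1 unique molecular identifier (UMI, 1 counted transcript molecule) of Il10, at least 1 UMI over the CD3 chain genes Cd3e, Cd3d and Cd3g, and 0 UMIs of Foxp3, Il17a, Il17f, Trdc, Cd79a and Ms4a1. Barcodes also needed at least 200 detected genes and at most 20% of UMIs from mitochondrial genes. This rule chose 105 of 16690 cells, of which 19 were from library C, 79 from T1 and 7 from T3. They are called Il10+ Foxp3-zero T cells below. The cells were thus chosen by their own measured UMIs, so the levels of Il10, the CD3 chains and the genes required to be at 0 are given as description only.

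Il10 encodes interleukin-10, a secreted cytokine that restrains macrophages, dendritic cells and effector T cells, and the gut is a tissue that develops inflammation when it is missing. CD4 T cells supply much of it, both as regulatory T cells that carry the transcription factor Foxp3 and as cells without Foxp3. Among the latter, type 1 regulatory (Tr1) cells are known for the receptors Lag3 and Itga2 and the transcription factors Maf, Ahr and Prdm1, while effector cells of the type 1 and type 17 kinds can also turn Il10 on. Il10 lies on chromosome 1 from 131019845 to 131024974 on the plus strand and Foxp3 on chromosome X from 7573644 to 7595245 on the plus strand (GRCm38, GENCODE annotation).

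The cells were CD45+ sorts (flow cytometry) of colon from the C57BL/6 strain, and the labels place the start of the model at 6 to 8 weeks of age. Library C is labelled as normal tissue of healthy mice, T1 as tissue with low-grade and T3 as tissue with high-grade intraepithelial neoplasia. T1 and T3 followed 1 intraperitoneal dose of azoxymethane (AOM, a colon carcinogen) at 12 mg/kg on day 0, then 3 cycles of 7 days of 2.5% dextran sodium sulfate (DSS, which injures the colon lining) and 14 days of water. In comparisons with C, neoplasia and this treatment cannot be told apart. There is 1 library per group and the number of mice behind each is not given, so differences were not checked between replicates, no p-value was computed, and every 95% interval covers counting error only.

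The libraries held 35489195 (C), 37208603 (T1) and 15898397 (T3) UMIs, and the median cell had 4933, 5272 and 1803 UMIs, so T3 was the shallowest. The animals are labelled male, and the data go against this, since Xist stood at 1196 to 1361 CPM (counts scaled to a common total) and each Y-linked transcript at 0 to 1 UMI per library. Between 35 and 39 barcode sequences were shared by each pair of libraries, and 1 cell of the population, in T1, carried one of them.

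In T1, 79 of 2648 cells with a CD3 UMI belonged to the population, a share of 2.98% (exact 95% interval 2.37 to 3.70). In C the share was 0.666% (0.401 to 1.04) and in T3 it was 0.255% (0.103 to 0.525), so the interval of T1 lay above both others. After every cell was thinned to 1000 UMIs and the rule reapplied, the shares in C and T1 were 1.08% and 5.29%; fewer UMIs also leave fewer cells with a UMI of the genes that must be at 0. Of the Il10+ T cells of T1, 309 in all, 79 (25.6%) were in the population, 108 carried Foxp3 without Il17a or Il17f, 16 carried Il17a or Il17f without Foxp3, 20 carried both, and 86 were set apart by Trdc, Cd79a or Ms4a1. The corresponding numbers in C were 19, 20, 2, 2 and 13 of 56 Il10+ T cells, and in T3 they were 7, 6, 0, 0 and 3 of 16.

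**Figure D1:**
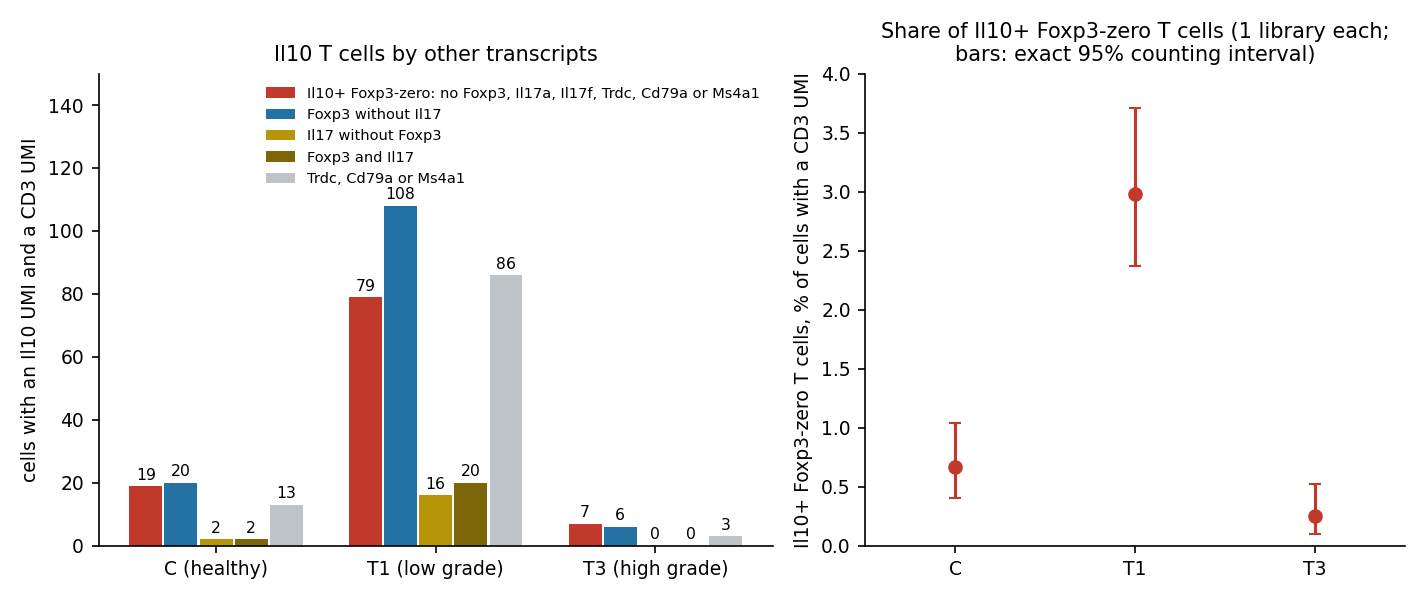
Bars of the left panel give the number of cells with Il10 and a CD3 chain by class for each library, and the right panel gives Il10+ Foxp3-zero T cells as a percent of CD3 cells with exact 95% intervals. T1 held 79 Il10+ Foxp3-zero T cells against 19 in C and 7 in T3, and its share of 2.98% stood above 0.666% in C and 0.255% in T3.

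Il10 levels ranged from 1 UMI per cell upward. In T1, 29 cells had 1 Il10 UMI, 6 had 2 and 44 had 3 or more, with a median of 3 and a maximum of 18. In C the split was 9, 4 and 6 cells with a maximum of 20, and in T3 it was 4, 0 and 3 cells with a maximum of 5. Cells with a single UMI may hold free or misassigned RNA. Their share was therefore set beside that in B cells without CD3 (median 4982 UMIs in T1, against 4477 in the population). Il10 made by these B cells cannot be told apart from such RNA here, so their share is an uncertain guide to the background. Such B cells had exactly 1 Il10 UMI in 1.26% of cells in T1 (exact interval 0.891 to 1.72). Single-UMI cells of the population made up 2.04% (1.37 to 2.91) of T cells that met the other terms of the rule. In C these shares were 0.408% (0.204 to 0.729) of B cells and 0.598% (0.274 to 1.13) of those T cells. The intervals overlapped in T1 and in C, so single-UMI cells were not clearly above the B-cell share there. At 3 or more Il10 UMIs the shares in T1 were 0.0661% of B cells and 3.09% of those T cells. In T3 the share with 1 UMI was 0.203% of those T cells and 0.294% of B cells, so single-UMI cells of T3 did not stand above the B-cell share.

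Whether Foxp3 was seen in an Il10+ T cell moved with the depth of the cell. Taking the population and the Foxp3 cells with Il10 of T1 together, Foxp3 was found in 31.2% of the 32 cells under 3000 UMIs, in 36 of 72 cells from 3000 up to 6000 UMIs and in 74.7% of 83 cells with 6000 or more (exact 95% interval 64.0 to 83.6). In C the same shares were 40.0%, 52.6% and 53.3% of 5, 19 and 15 cells. The population had a median of 4477 UMIs in T1 and the Foxp3 cells with Il10 had 6232.5. Of all 212 Foxp3 T cells of T1, 70 (33.0%) had a single Foxp3 UMI. How many of the cells without a Foxp3 UMI carried unseen Foxp3 transcripts was not tested.

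**Figure D2:**
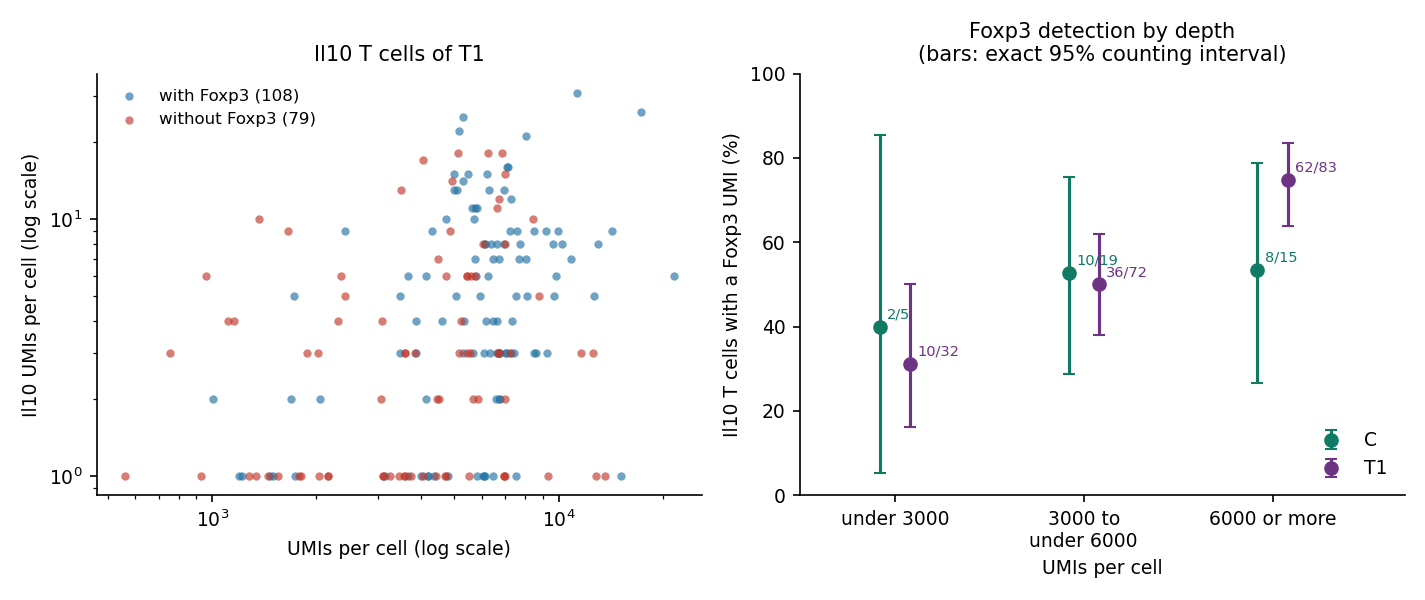
The left panel plots Il10 UMIs against total UMIs, both on log axes, for each of the 108 Foxp3 T cells with Il10 and the 79 Il10+ Foxp3-zero T cells of T1. The right panel gives the percent of these cells in which Foxp3 was seen, by UMIs per cell, in C and T1; in T1 it ran from 31.2% to 74.7%.

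Most cells of T1 carried further T-cell transcripts. There 72 of 79 cells had a UMI of the receptor constant genes Trac, Trbc1 or Trbc2, and Ptprc, which encodes CD45, was found in 91.1%. Cd4 without Cd8a or Cd8b1 was seen in 39 cells, Cd8a or Cd8b1 alone in 2, and neither in 38; Tcrg constant genes were seen in 2. In C the constant genes were seen in 18 of 19 cells and Ptprc in 94.7%. In T3 the constant genes were seen in 7 of 7 cells but Ptprc in 57.1%, 2 of the 7 cells had a single CD3 UMI, and neutrophil markers stood at 585 CPM, beside 966 in T cells of T3 under the same rule without Il10. Of the myeloid list 5 of 14 genes had a UMI in the T1 population, with Lyz2, Csf1r and C1qa at 0, and the summed level was 218 CPM against 393 in T cells of the same rule without Il10. The mast cell list had 1 of 7 genes with a UMI (2.72 against 554 CPM, Cpa3 at 0) and the epithelial list 2 of 9 (24.5 against 11.6 CPM, Krt8 at 0). Plasma cell markers stood at 495 against 916 CPM and innate lymphoid markers at 416 against 403. The part of these transcripts in the results was not tested. Of the B-cell list 11 of 12 genes had a UMI, with a summed level of 157.8 CPM without Igkc and Ighm, against 114.8 CPM in those T cells. Of 1269 Igkc UMIs (immunoglobulin kappa light chain), 1051 lay in 1 cell.

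The first comparison asked how Il10+ Foxp3-zero T cells of T1 differed from the 1344 T cells of the same library that met the same rule but had no Il10 UMI, called Il10-zero T cells. UMIs were summed over the cells of each side and scaled to CPM. A gene counted as called if both sums together held 50 UMIs or more, the CPM differed 2-fold or more, and 0 lay outside the interval of the log2 ratio. The population carried higher levels of Lag3, Maf, Ctla4, Icos, Gzmb and the receptors Tnfrsf4 and Tnfrsf9, and lower levels of naive T-cell genes and of some genes of killer lymphocytes. In all, 566 of 8124 genes (6.97%) were called higher and 152 (1.87%) lower, so 78.8% of the calls were higher. Scaled by the median ratio over genes instead of the total, 56.6% of the calls were higher, since the median log2 ratio over all genes was 0.19.

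Of the Tr1 list, genes linked to Il10-secreting T cells without Foxp3, 12 of 20 measured members were called higher and 0 lower, with a median log2 ratio of 1.42 beside 0.19 over all genes. Lag3, an inhibitory receptor that binds MHC class II, stood at 403 CPM in the population and 36.1 in Il10-zero T cells of T1, a log2 ratio of 3.48 [3.18, 3.77]. It was found in 51.9% of the cells (29.3% after thinning to 1000 UMIs), against 12.1% (3.07%) of Il10-zero T cells and 1.09% of B cells without CD3. Maf, a transcription factor that binds the Il10 gene, stood at 1249 against 238 CPM (2.39 [2.24, 2.54]) and was seen in 87.3% of the cells. Ctla4, an inhibitory receptor for the B7 ligands, stood at 1801 against 260 CPM (2.79 [2.67, 2.92]). Maf and Ctla4 were thus seen in most of the cells and Lag3 in about as many as not, all above the share in B cells.

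Further members called higher were Icos, a costimulatory receptor (2.07 [1.92, 2.22]), Prdm1, which encodes Blimp-1 (2.30 [1.42, 3.10]), and the transcription factor gene Nfil3 (2.30 [1.92, 2.67]). Ahr, a receptor for dietary and microbial ligands, had 1.44 [0.99, 1.86], Irf4 1.41 [0.75, 2.01] and Bhlhe40 1.35 [1.09, 1.60]. Gzmb, encoding granzyme B, was found in 50.6% of the cells and stood at 988 against 179 CPM (2.47 [2.30, 2.63]). The surface marker Itga2 (CD49b), used with Lag3 to define Tr1 cells, had no UMI in the 79 cells. Havcr2, an inhibitory receptor, was seen in 12.7%. Lag3 and Maf were found in the same cell in 39 of 79 cells of the population and in 93 of 1344 Il10-zero T cells.

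**Figure D3:**
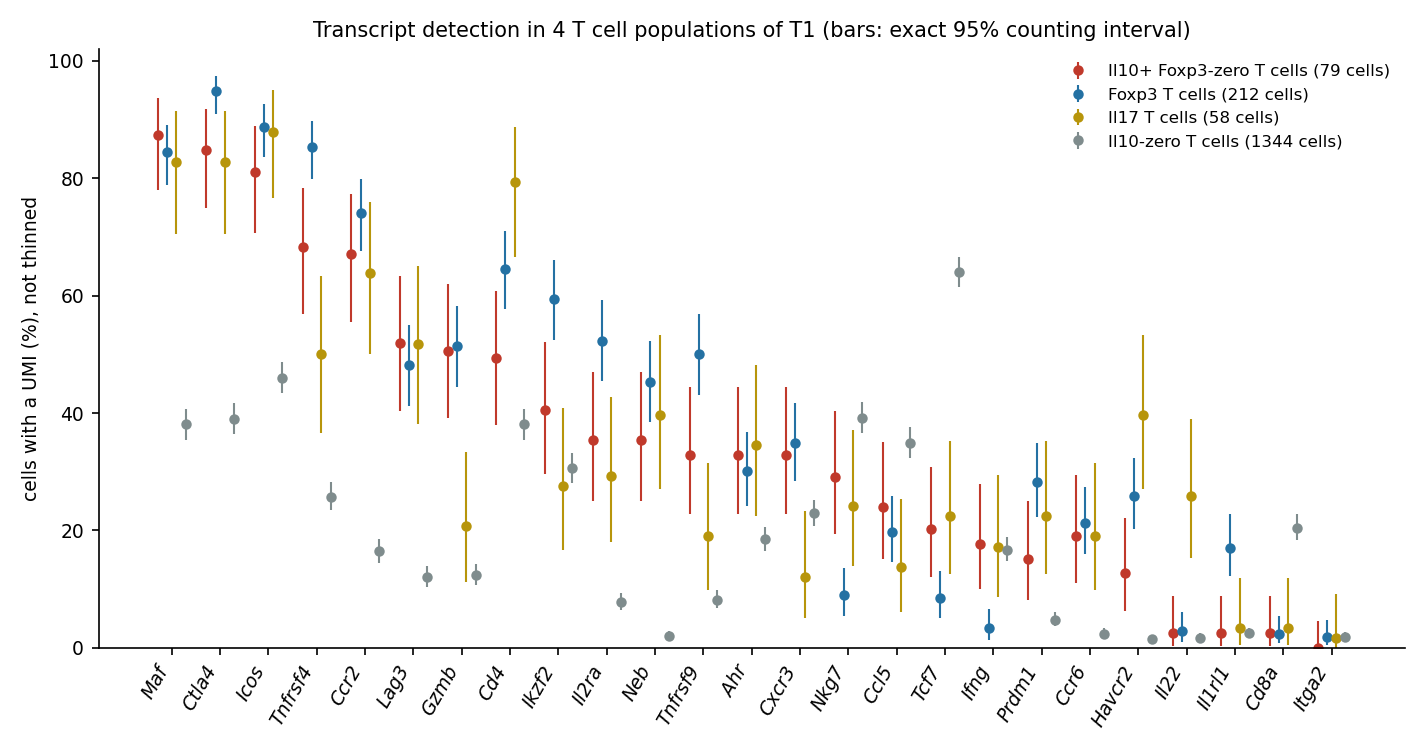
Points give the percent of cells with at least 1 UMI of each of 25 genes in 4 T-cell populations of T1, without thinning, and bars the exact 95% interval. Maf was seen in 87.3% and Lag3 in 51.9% of Il10+ Foxp3-zero T cells, against 38.1% and 12.1% of Il10-zero T cells.

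Genes of regulatory T cells were also higher although Foxp3 was absent by the rule. Of this list, 9 of 12 measured members were called higher and 0 lower, with a median log2 ratio of 1.98. They included Il2ra, the high-affinity receptor chain for interleukin-2 (2.58 [2.07, 3.07]), the tumour necrosis factor receptors Tnfrsf4 (OX40; 2.69 [2.51, 2.87]), Tnfrsf9 (4-1BB; 3.51 [3.16, 3.85]) and Tnfrsf18 (GITR; 1.41 [1.11, 1.69]), and Areg, the growth factor amphiregulin (2.34 [1.86, 2.78]). Areg UMIs came from 10.1% of the cells. Ikzf2, which encodes Helios, a factor of thymus-derived regulatory T cells, was not called, with 258 against 206 CPM (0.33 [0.02, 0.63]). A UMI of Ikzf2 or Il2ra was present in 49 of 79 cells and in 472 of 1344 Il10-zero T cells.

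Type 17 genes other than Il17a and Il17f were higher in part, with 6 of 11 measured members called higher and 1 lower. The chemokine receptor gene Ccr6 had 2.93 [2.04, 3.74]. The value of Il22, a cytokine that acts on epithelium, was 2.48 but came from 2 cells, 1 of which held 23 of its 30 UMIs. It was 0.38 without that cell. Here and below, a value without a gene's leading cell leaves out only the UMIs of that gene in the cell. The other UMIs of the cell stay in the total, so such values are somewhat lower than with the whole cell left out. Of the type 1 list, 3 of 12 were called higher. Ifng, encoding interferon-gamma, had 0.38 [0.03, 0.71] and was -0.20 without the cell that held 26 of its 78 UMIs, while its regulator Tbx21 had 0.73 [-0.25, 1.57]. Ifng was seen in 17.7% of the population and 16.7% of Il10-zero T cells.

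Of the killer-lymphocyte list, 1 of 17 measured genes was called higher, Gzmb, and 6 lower, while 10 were not called. Gzma, encoding granzyme A, stood at 21.8 against 294 CPM (-3.75 [-4.97, -2.77]). The chemokine gene Ccl5 stood at 792 against 2140 CPM (-1.43 [-1.61, -1.27]), and Klrd1, the CD94 receptor chain, had -2.80 [-3.93, -1.87]. Cd8a had -2.30 [-3.52, -1.31]. Among cells with Cd4 and without Cd8a or Cd8b1 on both sides, Ccl5 turned to 0.34 and 3 of 12 killer-lymphocyte genes remained lower.

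Naive and memory genes were lower in 9 of 13 members and higher in 0, with a median of -1.75. Tcf7, a factor of naive and memory cells, had -1.80 [-2.37, -1.29], Lef1 -1.67 [-2.22, -1.16], and S1pr1, which lets cells leave tissue, -1.90 [-2.82, -1.12]. Il7r, the interleukin-7 receptor, was not called (0.15 [-0.14, 0.43]). A UMI of Ccr7 or S1pr1, both found in circulating cells, was present in 20 of 79 cells of the population and in 716 of 1344 Il10-zero T cells. Against Il10-zero T cells without these transcripts, a comparison chosen after seeing the data, 1 of 11 naive and memory genes was higher and 3 lower, with a median of -0.48, and Lef1 had -0.22. There the Tr1 list had 9 of 19 higher and 1 lower (median 0.88), the regulatory list 7 of 12 higher and 0 lower (1.41) and the type 17 list 3 of 9 higher and 1 lower (0.70), beside 0.05 over all genes.

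Genes that place cells in tissue and genes around the Il10 switch were also measured. Of the residency and homing list, 6 of 16 were higher and 2 lower. Ccr2, a receptor for monocyte-attracting chemokines, stood at 604 against 71.6 CPM (3.08 [2.85, 3.30]), Itgae, the CD103 integrin chain that binds epithelial cadherin, had 1.49 [0.93, 2.01], and Itga1 had -1.59 [-3.48, -0.22]. Of genes known to regulate Il10, 9 of 25 were higher and 0 lower, among them the cyclic AMP-responsive factor Crem (1.53 [1.29, 1.75]) and Stat3 (1.01 [0.68, 1.33]; 0.62 without the cell with most of its UMIs). No immediate early gene of 18 was called either way, and the median of that list was 0.18.

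Outside the lists, the highest ratio belonged to Neb, which encodes the muscle protein nebulin. It had 58 UMIs in 35.4% of the population and 42 UMIs in 1.93% of Il10-zero T cells, a log2 ratio of 4.98 [4.38, 5.59]. Mmp9, a matrix-degrading protease, had 4.28 [3.41, 5.14] from 23 UMIs, and Dusp4, a phosphatase of MAP kinases, had 3.55 [3.04, 4.05]. The lowest ratios were those of Igfbp4 (-4.36 [-7.41, -2.50]), which binds insulin-like growth factors, and of the chemokine gene Xcl1 (-3.42 [-5.30, -2.06]). Of the 566 genes called higher, 291 (51.4%) kept the call when the gene's own UMIs in its leading cell were left out.

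The same comparison was made in C, where 19 cells of the population were set against 1487 Il10-zero T cells. There 378 of 8377 genes (4.51%) were called higher and 72 (0.859%) lower, and the median over all genes was 0.31; 84.0% of the calls were higher, or 68.7% with median ratio scaling. Lag3 (414 against 38.5 CPM; 3.43 [2.93, 3.89]), Ctla4 (1097 against 109 CPM; 3.33 [3.03, 3.61]), Maf (702 against 123 CPM; 2.52 [2.16, 2.86]) and Icos (2.95 [2.59, 3.29]) were again higher. Tnfrsf4 led the named genes at 4.19 [3.84, 4.53]. Of the Tr1 list 12 of 20 were higher and 0 lower, with a median of 1.86.

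Not every gene of T1 had the same ratio in C. Gzmb had 0.12 [-0.51, 0.69] in C, where it was found in 3 of 19 cells and stood at 241 against 221 CPM. Ifng was lower by its level in C (48.1 against 322 CPM; -2.74 [-4.37, -1.52]), from 5 UMIs found in 21.1% of the 19 cells. Ahr had -1.32 [-3.61, 0.23], from 3 UMIs. These differences between the libraries' ratios were not tested.

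Follicular helper genes, which mark T cells that help B cells, were called in C in 8 of 11 members, all higher, with a median of 1.81; in T1 they were 1 of 11, with a median of -0.02. Cxcr5, the receptor that leads T cells into B-cell follicles, had 14 UMIs in 5 of the 19 cells of C (3.26 [2.35, 4.07]), and Bcl6, the factor of follicular helper cells, had 1.70 [0.23, 2.85] from 6 UMIs. Pdcd1, the PD-1 receptor, had 1.81 but -0.36 without the cell that held 7 of its 9 UMIs. Without the cells that carried Ikzf2, which left 8 of the 19, 1 of the 11 follicular helper genes was called. The part of the smaller cell number in this was not tested. Interferon-stimulated genes were higher in 11 of 17 members, but 1 cell held 213 of their 379 UMIs (56.2%). Ifit1, an interferon-induced antiviral gene, was at 0.98 in place of 3.07 without its own UMIs in its leading cell. The other UMIs of that cell stayed in the total, and the value without the whole cell was not computed. Of the 378 genes called higher in C, 87 (23.0%) kept the call without the gene's own UMIs in its leading cell.

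**Figure D4:**
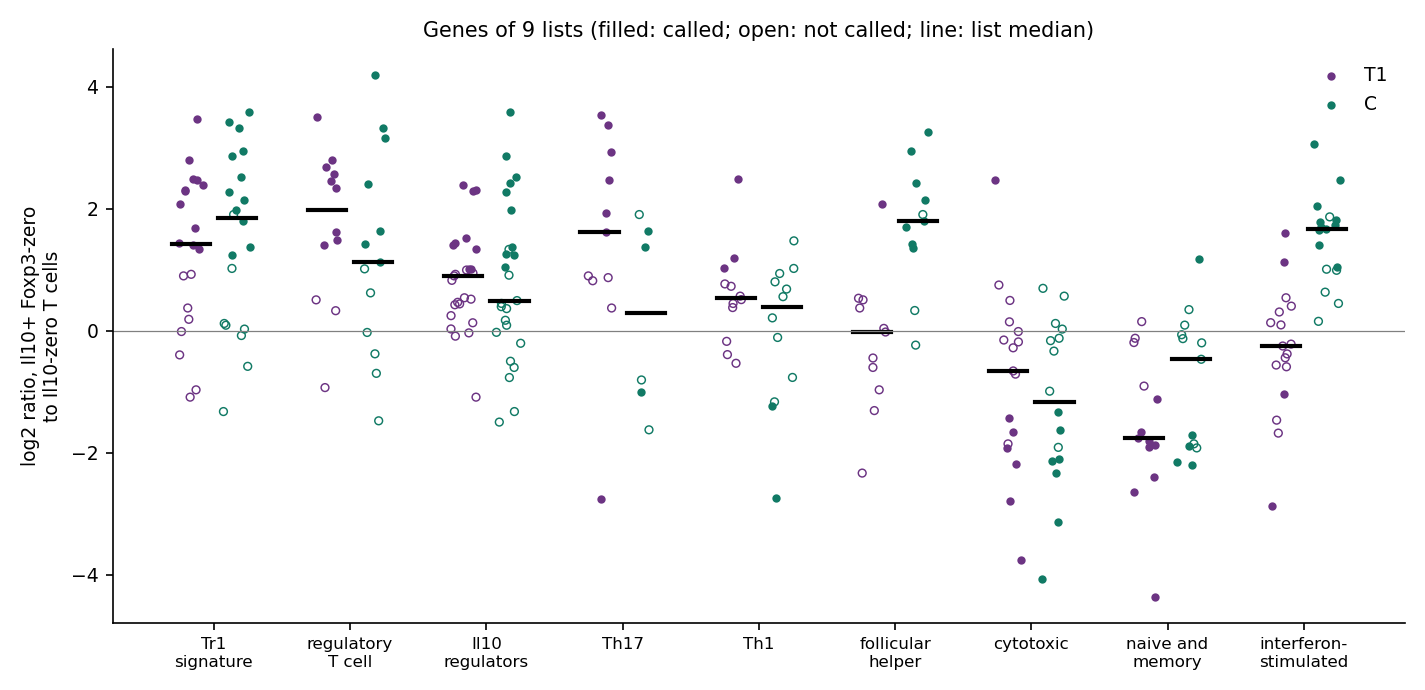
Each point is the log2 ratio of 1 gene in Il10+ Foxp3-zero T cells against Il10-zero T cells, in T1 and in C, for 9 gene lists; filled points passed the 2-fold rule, open points did not, and lines mark list medians. The Tr1 list had medians of 1.42 in T1 and 1.86 in C, and the naive and memory list -1.75 and -0.47.

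Of 7930 genes tested in both libraries, 96 were called higher in both, which is 18.0% of those higher in T1 and 25.8% of those higher in C; 28 were lower in both (18.5% and 38.9%). Because several factors of the AP-1 family act at T-cell genes, the stretch before the start site of the genes higher in both was searched for the AP-1 motif TGANTCA, where N is any base. Its reverse complement is the same pattern, so both strands were covered. RefSeq windows (GRCm38.p6) of 250 bases before a start were found for 72 of the 96 genes, and 7 of them (9.72%) held the motif in at least 1 window, beside 7.82% of all 27025 genes with a window. The windows of Prdm1 and Tnfrsf9, the members of the Tr1 and regulatory lists among the 7, are shown 5′ to 3′ with the motif in capitals. Both windows lie before an alternative start within the span of the gene, not before its outermost start. In Prdm1 (chr10:44458749-44458998, minus strand) the motif began 48 bases before that start, and in Tnfrsf9 (chr4:150927749-150927998, plus strand) it began 15 bases before it.
Prdm1: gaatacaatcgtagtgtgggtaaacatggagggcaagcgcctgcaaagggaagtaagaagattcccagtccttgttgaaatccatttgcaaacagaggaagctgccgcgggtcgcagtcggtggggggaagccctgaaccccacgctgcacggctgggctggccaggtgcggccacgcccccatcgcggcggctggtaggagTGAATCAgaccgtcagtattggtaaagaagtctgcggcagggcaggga
Tnfrsf9: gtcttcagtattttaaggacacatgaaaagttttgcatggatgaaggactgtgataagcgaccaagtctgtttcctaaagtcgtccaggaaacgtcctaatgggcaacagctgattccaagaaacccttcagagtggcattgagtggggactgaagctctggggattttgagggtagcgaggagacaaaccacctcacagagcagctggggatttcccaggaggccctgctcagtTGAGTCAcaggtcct
A match is a string of letters and was not examined for binding.

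The next comparison set the population against the 212 Foxp3 T cells of T1, which had a CD3 UMI, Foxp3, no Il17a, Il17f, Trdc, Cd79a or Ms4a1, and any Il10. Fewer genes differed, with 34 of 3894 (0.873%) called higher and 90 (2.31%) lower; without a UMI minimum the balance turned, to 207 higher and 144 lower. The population had higher summed levels of Ifng, Nkg7 and Ccl5, and lower ones of Il1rl1, Ikzf2 and other genes of regulatory T cells. Lag3, Maf, Ctla4, Icos and Gzmb lay close to the Foxp3 cells. Ifng had 78 UMIs against 15 and stood at 212 against 11.8 CPM, a log2 ratio of 4.17 [3.36, 5.07] that was 3.58 without its leading cell. Ifng was found in 14 of 79 cells of the population, in 4 of the 108 Foxp3 cells with Il10 and in 3 of the 104 without. Nkg7, a granule protein of killer and type 1 cells, had 2.99 [2.48, 3.52]. Ccl5 had 2.51 [2.23, 2.78] and 1.93 without the cell that held 96 of its 291 UMIs. Further cells held 93 and 41 of them, and the ratio without these was not computed. Ccl5 was found in 24.1% of the population and 19.4% of the Foxp3 cells with Il10, so its level rests on few cells. With at least 2 Il10 UMIs required, Ifng had 3.71, Nkg7 2.77 and Ccl5 2.15. Tcf7 was called higher (1.41 [0.67, 2.14]), but 25 of its 30 UMIs lay in the cells with 1 Il10 UMI, at 207 CPM, and the cells with 3 or more stood at 18.5 CPM, below the 30.7 CPM of the Foxp3 cells.

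Among genes of the regulatory list, 0 of 16 were higher and 7 lower, with a median of -0.81 beside -0.04 over all genes. Il1rl1, the receptor for the alarmin interleukin-33, had 2 UMIs against 134 (-4.28 [-7.34, -2.40]). Ikzf2 stood at 258 CPM in the population, with a log2 ratio of -1.14 [-1.46, -0.83], and Lrrc32, which presents latent transforming growth factor beta on regulatory T cells, had -1.05 [-2.11, -0.14]. Areg had -1.17 [-1.62, -0.74], and turned to 0.44 with cells thinned to 1000 UMIs. Il2ra (-0.73 [-1.22, -0.26]) and Tnfrsf4 (-0.46 [-0.64, -0.29]) were below the 2-fold size. No gene of the Tr1 list was called of 18, and their median was -0.11: Lag3 had -0.00 [-0.27, 0.27], Maf -0.05 [-0.20, 0.10], Ctla4 -0.13 [-0.26, -0.01] and Gzmb -0.08 [-0.25, 0.09].

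The MHC class II genes, which antigen-presenting cells carry, were lower in 4 of 5 members, among them H2-Ab1 (-1.94). Leaving out cells with 200 or more Igkc UMIs, of which 2 were Foxp3 cells, 0 of 5 were called and the median was 0.24. The heat shock genes Hspa1b (1.38 [1.22, 1.54]) and Hsph1 (1.18 [0.70, 1.66]) were higher in the population.

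Split by Il10, the Foxp3 cells gave different neighbours for the population. Against the 108 Foxp3 cells with Il10, 21 of 2826 genes (0.743%) were higher and 55 (1.95%) lower. Lag3 then had -0.66 [-0.94, -0.39], Gzmb -0.64 [-0.81, -0.47] and Ikzf2 -0.34 [-0.70, 0.02], none of them called. Of the Tr1 list 2 of 16 were lower, Prdm1 (-1.18 [-2.07, -0.38]) and Havcr2 (-1.39 [-2.27, -0.61]). S100a4, a calcium-binding protein of activated cells, was found in 44.3% of the population and 87.0% of these Foxp3 cells (-1.42 [-1.65, -1.19]). Ifng remained higher at 3.75 [2.84, 4.81].

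Against the 104 Foxp3 cells without Il10, 31 of 2480 genes (1.25%) were higher and 61 (2.46%) lower. Lag3 had 1.80 [1.37, 2.24], Gzmb 1.18 [0.94, 1.42], Cxcr6, a receptor of tissue T cells, 1.70 [1.22, 2.20], and Ahr 1.06 [0.43, 1.71], all called higher. Ikzf2 had -1.75 [-2.08, -1.43] and Ccr7, which guides cells to lymph nodes, -1.83 [-2.37, -1.33]. Lag3 with Maf in the same cell was seen in 39 of 79 cells of the population, in 70 of 108 Foxp3 cells with Il10 and in 23 of 104 without. Lag3 in the population thus lay between Foxp3 cells with and without Il10. The 3 comparisons share the population's cells, and the Foxp3 cells with Il10 were deeper (median 6232.5 UMIs) than those without (4980.5).

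**Figure D5:**
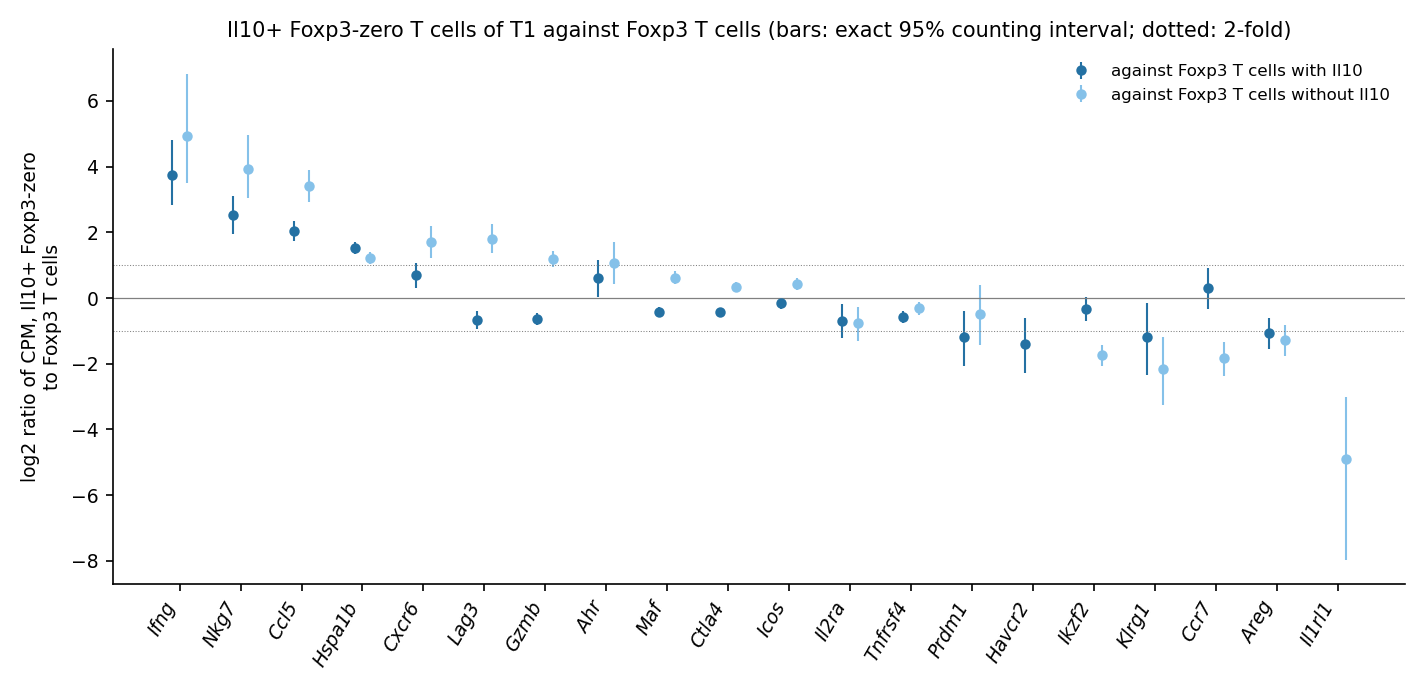
Points give the log2 ratio of Il10+ Foxp3-zero T cells to Foxp3 T cells with Il10 and to Foxp3 T cells without Il10 in T1 for 20 genes, with exact 95% intervals; dotted lines mark 2-fold. Ifng has the highest points (3.75 and 4.92), while Lag3 lies below the first (-0.66) and above the second (1.80).

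Against the 58 Il17 T cells of T1, which carried Il17a or Il17f and no Foxp3, 53 of 2089 genes (2.54%) were higher in the population and 55 (2.63%) lower. The population had higher summed levels of Ccl5, Cxcr3, Ikzf2 and Gzmb and lower ones of Ccl20 and other type 17 genes. Of the type 17 list 0 of 8 were higher and 6 lower, with a median of -1.80. The type 17 cytokine partner Il22 had -3.30 with 23 of its 30 UMIs in 1 cell, and Ccl20, a ligand of Ccr6, -3.64 [-4.30, -3.04]. Ccl5 had 291 UMIs against 9 (5.19 [4.24, 6.33]). It was found in 24.1% of the population, and single cells held 96, 93 and 41 of the 291, so its level rests on few cells. Cxcr3, a chemokine receptor of type 1 cells, had 2.63 [1.53, 3.93], and Gzmb 1.66 [1.36, 1.96].

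Ikzf2 was higher than in Il17 cells (1.74 [1.15, 2.37]), as was Tnfrsf9 (1.58 [1.04, 2.14]). Zeb2, a repressor active in effector cells, was found in 6.33% of the population and 53.4% of Il17 cells (-4.11 [-5.59, -2.95]). Nrgn, a calmodulin-binding protein, had 0 UMIs in the population and 53 in Il17 cells, which puts it at a log2 ratio of -3.97 or lower with the sum of 0 set at 3 counts. Lag3 (0.03 [-0.30, 0.36]) and Ctla4 (-0.01 [-0.16, 0.15]) lay close to the Il17 cells. Of the Tr1 list 1 of 15 was higher and 1 lower, with a median of 0.03. Ifng had 0.97 [0.42, 1.53].

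Within the T1 population, the 44 cells with 3 or more Il10 UMIs were set against the 29 with 1; their median depths were 5147.5 and 3458 UMIs. Of 874 genes, 58 (6.64%) were higher and 10 (1.14%) lower. Of the Tr1 list 4 of 10 were higher and 0 lower, with a median of 0.90 beside 0.16 over all genes. Bhlhe40, a factor that can repress Il10, had 2.30 [1.50, 3.21], Lag3 1.53 [0.88, 2.25], Nfil3 1.25 [0.32, 2.29] and Gzmb 1.17 [0.77, 1.59]. Lag3 was seen in 68.2% of cells with 3 or more Il10 UMIs and in 24.1% of those with 1, and Ctla4 in 100% and 62.1%. Klf2, a factor of resting cells, was lower by its level (-2.27 [-3.09, -1.51]), with 20 UMIs against 54. It was found in 34.1% of the cells with 3 or more Il10 UMIs and in 41.4% of those with 1, so the shares were closer than the levels. Ifng was lower by its level (-1.64 [-2.44, -0.86]), with 23 UMIs against 40, but was found in 20.5% of the cells with 3 or more Il10 UMIs and in 10.3% of those with 1, so no order is read from it. Ikzf2 had 0.30 [-0.40, 1.02].

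The 49 cells with Ikzf2 or Il2ra and the 30 with neither also differed in other genes, at median depths of 4742 and 3286 UMIs. Gzmb stood at 1194 CPM in the first and 551 in the second, Ctla4 at 2087 and 1196, and Tcf7 at 52.1 and 144. Ifng stood at 140 and 365 CPM but was found in 18.4% and 16.7% of cells. Lag3 (409 and 390 CPM) was near in both. Ifng and Gzmb were found together in 7 cells. Variable segments of the T-cell receptor beta chain were read in 11 of 79 cells, with Trbv2 and Trbv13-1 in 2 cells each and no segment in more.

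Set against the 19 cells of C by the same rule, the 79 cells of T1 had 75 of 1248 genes (6.01%) higher and 30 (2.4%) lower. The balance turned to 7 higher and 14 lower with cells thinned to 1000 UMIs, and to 129 higher and 227 lower without a UMI minimum. The largest ratio among named genes was that of Ccr2, with 222 UMIs in T1 and 4 in C (3.97 [2.60, 5.86]). Il4ra, the interleukin-4 receptor chain (3.82 [1.28, 9.15]), and Areg (3.82 [1.28, 9.15]) each had 50 UMIs in T1 and 1 in C. Il4ra was found in 32.9% of the cells of T1 and Areg in 10.1%, each against 5.26% in C. Of the 50 Areg UMIs of T1, 16 lay in 1 cell. Of the type 1 list 4 of 7 were higher and 0 lower, among them the interleukin-18 receptor chain Il18r1 at 2.85 [0.92, 5.93]. Ifng was called by its level (2.14 [0.86, 3.80]), but was found in 17.7% of the cells of T1 and 21.1% of those of C, so no order is read from it. Gzmb had 2.04 [1.45, 2.68] and Ahr 2.27 [0.64, 4.59], the 2 called of 13 Tr1 genes. Lag3 (-0.04 [-0.54, 0.49]; 1.83 with cells thinned to 1000 UMIs, from 5 UMIs in C) and Tnfrsf4 (0.08 [-0.26, 0.44]) stood at close levels in both libraries, and Maf (0.83 [0.47, 1.21]) and Ctla4 (0.72 [0.43, 1.02]) were below the 2-fold size. In Il10-zero T cells, by the levels given above, Maf and Ctla4 also stood higher in T1 than in C, while Lag3 was near and Gzmb lower. Whether the other differences between T1 and C were shared by Il10-zero T cells was not tested.

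Genes lower in T1 than in C included naive and memory genes, 4 of 7, and immediate early genes, 4 of 14. Klf2 had -2.28 [-2.70, -1.87], Tcf7 -1.37 [-2.22, -0.51] and Ccr7 -1.38 [-2.12, -0.62]. Egr1, an early response factor, had -2.06 [-2.71, -1.41] and the AP-1 subunit genes Jun and Fos had -1.79 [-2.04, -1.53] and -1.60 [-1.96, -1.24]. Among cells with Cd4 and no Cd8a or Cd8b1, Fos turned to 0.26. Ccl5 was called lower by its level (-1.62 [-1.87, -1.37]), but was found in 24.1% of the cells of T1 and 26.3% of those of C. In C 1 cell held 136 of its 253 UMIs, so no order is read from it.

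The 7 cells of T3 held 20515 UMIs in all and allow levels only for abundant genes. Ctla4 had 46 UMIs (2242 CPM, against 132 in Il10-zero T cells of T3), Icos 21 (1024 against 183), Maf 20 (975 against 127) and Tnfrsf4 20 (975 against 60.4). Maf and Ctla4 were each found in 4 of 7 cells and Lag3, with 4 UMIs, in 2. Gzmb had 4 UMIs, Ifng and Ikzf2 1 each and Il2ra 0. Haemoglobin and other erythroid transcripts came to 96 UMIs in 6 of the 7 cells (4680 CPM), and stood at 5184 CPM in Il10-zero T cells of T3.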

How the data were processed

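Droplet libraries of CD45+ mouse colon cells (10x 3′ V3.1 chemistry, per the labels' protocols) were used, 1 per group. The authors deposited raw counts of UMIs by gene and cell barcode. CASAVA 1.8, Cell Ranger 3.1.0, Seurat 3.1.4 and GRCm38 are listed in the submitters' processing notes with no role, and the matrices carry 3.1.0 as software version, per the file headers. The sources used here give neither the annotation nor whether introns were counted, so overlapping genes and near-identical copies are uncertain. Every deposited barcode held at least 500 UMIs.

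The cell rule and the gene lists were chosen with earlier results of these data known. No doublet caller was run and none were removed. Counts were summed per population, scaled to CPM, and set against each other as log2 ratios with exact conditional 95% intervals; shares have exact Clopper-Pearson intervals. A sum of 0 was set at 3 counts. With 1 library per group no test was possible. The text names, per comparison, genes among the 12 highest and 12 lowest called ratios seen in 10% or more of either side's cells (leaving out mitochondrial, ribosomal protein, receptor segment, histone and predicted genes and those of the rule), any gene of the lists, and Trbv2 and Tcrg and Trac constant genes by cell counts. Alternatives changed the Il10 and CD3 minimum, mitochondrial limit, depth, scaling, weighting, UMI minimum, lineage and comparator; 1 planned comparator is not reported here. Scripts used Python 3.11.15, numpy 2.4.6, scipy 1.17.1, pandas 2.3.3 and matplotlib 3.10.9 and were tested on simulated data.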

Additional observations from a re-analysis of the deposited data

Results flagged for a closer look

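In 3 genes the ratio of Il10+ Foxp3-zero T cells to Il10-zero T cells passed the 2-fold rule with opposite signs in T1 and C; the difference between the libraries was not tested. Ccr7, a lymph node homing receptor, had a log2 ratio of -1.12 [-1.62, -0.66] in T1 and 1.18 [0.59, 1.72] in C, from 38 UMIs in 12 cells and 28 UMIs in 5 cells, and 12 of the 28 lay in 1 cell. Igf1r, the receptor for insulin-like growth factor 1, had -1.81 [-4.10, -0.25] in T1 and 2.63 [1.69, 3.45] in C, from 3 UMIs in 3 cells and 13 UMIs in 8 cells. Tnfsf8, the ligand of CD30, had -1.13 [-1.87, -0.48] in T1 and 1.91 [1.39, 2.40] in C, from 19 UMIs in 7 cells and 36 UMIs in 8 cells. Each of the 3 lost its opposite sign under an alternative: after thinning to 1000 UMIs Ccr7 in C was -0.33 and Igf1r in T1 was 0.18, and without cells carrying Ikzf2 Tnfsf8 in C was -0.83.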

How the results depend on the processing

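No paired analysis was possible because each group has 1 library. Among genes whose log2 ratio the text gives and that passed the 2-fold rule, 1169 of 1176 values under the alternatives kept their sign. The 7 that changed sign were Igf1r in T1 (0.18) and Ccr7 in C (-0.33) against Il10-zero T cells and Areg against Foxp3 T cells (0.44), all after thinning to 1000 UMIs; Ccl5 (0.34), Itga1 (0.26) in T1 and Fos in T1 against C (0.26) among Cd4 cells without Cd8; and Tnfsf8 in C (-0.83) without cells carrying Ikzf2. Of genes that did not pass, 39 of 290 values changed sign. Of the 1176 values, 1020 lay inside the interval of the main setting. A change of the UMI minimum alters which genes are counted but not their ratios. Over genes that passed and genes that did not, 116 values without a minimum and 99 at 100 UMIs or more were thus fixed in advance. They are included in the counts given here and say nothing about stability. A value was counted only where the gene still reached the UMI minimum and had a UMI on both sides. Thinning therefore gave fewer values than most alternatives. The leading-cell check is not part of these counts.

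The number of genes called moved by over 1.5 times as follows. Thinning to 1000 UMIs left 368 in place of 718 against Il10-zero T cells in T1, 189 in place of 450 in C, 14 in place of 124 against Foxp3 T cells, 6 in place of 76 against those with Il10, 13 in place of 92 against those without, 24 in place of 108 against Il17 T cells and 21 in place of 105 for T1 against C. Fewer genes reached the UMI minimum there. The rule was also reapplied to the thinned cells, so cells whose Foxp3 UMIs were lost could enter the population and the cells compared changed. Without a UMI minimum the counts were 351, 391 and 409 against the Foxp3 groups in that order, 467 against Il17 T cells and 356 for T1 against C (59.0%, 55.5%, 56.5%, 53.1% and 36.2% higher, in place of 27.4%, 27.6%, 33.7%, 49.1% and 71.4%), and at 100 UMIs or more they were 39, 25, 27, 44 and 40, and 21 in place of 68 by Il10 UMIs. Among Cd4 cells without Cd8 they were 472 in T1 and 265 in C against Il10-zero T cells, 58 against Foxp3 T cells without Il10 and 58 for T1 against C. Without cells carrying Ikzf2 they were 281 in C, 51 for T1 against C and 140 against Foxp3 T cells with Il10. With at least 2 Il10 UMIs T1 against C gave 55. Against Il10-zero T cells of T1 without Ccr7 or S1pr1, chosen after seeing the data, the count was 466, of which 51.7% were higher, and there Ifng had -0.49 and Ikzf2 -0.36. Where no construction is named, the cause was not tested.

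The population's share of CD3 cells became 0.351% in C and 1.89% in T1 with at least 2 Il10 UMIs, 1.08% and 5.29% after thinning, and 1.33% and 4.13% among Cd4 cells without Cd8. In each of these settings T1 lay above C. T3, with 7 cells and 1803 UMIs per median cell, limits what can be read there, and in C single cells carried many ratios. The alternatives without shared barcodes and without cells of 200 or more Igkc UMIs, the leading-cell check and all those by Il10 UMIs and for the split Foxp3 groups were chosen after seeing the data.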

Other observations

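Some receptors outside the report's account were also higher in Il10+ Foxp3-zero T cells of T1 than in Il10-zero T cells. Ltb4r1, the receptor for leukotriene B4, was found in 27.8% of the cells against 4.32% (log2 ratio 3.20 [2.62, 3.76]). Ccr4, a receptor of type 2 and regulatory T cells, was found in 22.8% against 4.99% (3.02 [2.39, 3.62]), and in 38.2% of Foxp3 T cells (-0.37 [-0.97, 0.19] for the population against them). Adora2a, an adenosine receptor that raises cyclic AMP, had 1.71 [1.05, 2.32] against Il10-zero T cells.

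Of the activation and costimulation list 6 of 16 were higher and 1 lower in that comparison. Cd28, the main costimulatory receptor of T cells, was found in 88.6% of the cells against 68.8% (1.04 [0.87, 1.20]). In C, Cd28 was found in 84.2% against 50.8% (1.16 [0.80, 1.50]). Of the cell cycle list 1 of 10 was called in T1, Mcm6, which was higher.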
